A study of Mus musculus with 12 samples.

Results

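The cyclin-dependent kinase Cdk1, its B cyclins and the enzymes that set its inhibitory phosphorylation were followed across the pubertal transition in mouse oocytes. The 10 genes were chosen by symbol among the 24562 genes of the count table, as the kinase, its cyclins and its direct regulators, at a time when other results of these data were known. They are Cdk1, Ccnb1, Ccnb2 and Ccnb3 (the kinase and its partners), Wee1, Wee2 and Pkmyt1 (the inhibitory kinases), and Cdc25a, Cdc25b and Cdc25c (the activating phosphatases). All 10 were among the 13943 genes that passed the filter on low counts. RNA-Seq had been performed on oocytes of CD-1 mice without stimulation, taken from antral follicles, in 12 pools of 18 to 45 oocytes, with 3 pools from 3 mice in each cohort. The cohorts were PND 13, PND 40 and, of animals divided by body weight, PND 16 small and PND 16 large, where PND is the postnatal day. Oocytes of the PND 40 and PND 16 large cohorts are called meiotically competent here, and those of the other cohorts non-competent, after the grouping of the study. The study describes PND 16 large oocytes as competent but of suboptimal quality. Its split of PND 16 by weight rests on few animals, whose data it does not show. In these cohorts competence cannot be told apart from age or body weight. Whether a pool held the oocytes of 1 mouse or of several is not said, and p-values measure the spread between these pools.

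CDK1 bound to a B cyclin forms maturation-promoting factor, the activity that takes an oocyte out of prophase arrest and into meiotic M phase. During the arrest, WEE1, the oocyte kinase WEE2 (also called WEE1B) and the membrane-bound kinase PKMYT1 hold CDK1 inactive. Between them, though not each at both sites, they phosphorylate a threonine and a tyrosine near the amino end of CDK1. CDC25 phosphatases remove these phosphates at meiotic resumption. In mouse oocytes CDC25B is required for this step, cyclin B1 and cyclin B2 support entry into the first division, and cyclin B3 is needed for anaphase of meiosis I.

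The stretch of Cdk1 that these kinases and phosphatases act on is shown first, since every comparison below concerns the genes around it. In the GENCODE M21 transcript of Cdk1, codons 10 to 19 read as follows, with the codons of threonine 14 and tyrosine 15 in capitals.
Cdk1 codons: attggagaaggtACTTACggtgtggtgtat
These capitals lie in the coding part of exon 3 of 8, at chr10:69346224-69346229 on the minus strand of GRCm38, the same assembly as the mm10 build named in the submitters' processing notes.

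The promoters of the kinase and of the 3 B cyclins are shown because their mRNAs are set against each other below. Each covers 250 bases before to 50 after the start site and was taken from RefSeq (GRCm38.p6), whose table matched 7 of the 10 genes. Capitals mark CCAAT and TTTGAA on either strand, the CCAAT box and the CHR element known from genes of the G2 and M phases, and no copy of the one overlapped the other. The windows lie at chr10:69352863-69353162, chr13:100786437-100786736, chr9:70421505-70421804 and chrX:7041570-7041869, all on the minus strand.
Cdk1 promoter: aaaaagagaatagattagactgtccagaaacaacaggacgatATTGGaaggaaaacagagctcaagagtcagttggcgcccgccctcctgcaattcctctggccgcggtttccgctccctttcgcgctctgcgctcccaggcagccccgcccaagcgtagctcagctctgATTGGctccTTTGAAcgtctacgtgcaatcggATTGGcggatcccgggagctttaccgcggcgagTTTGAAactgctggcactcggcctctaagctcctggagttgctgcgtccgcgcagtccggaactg
Ccnb1 promoter: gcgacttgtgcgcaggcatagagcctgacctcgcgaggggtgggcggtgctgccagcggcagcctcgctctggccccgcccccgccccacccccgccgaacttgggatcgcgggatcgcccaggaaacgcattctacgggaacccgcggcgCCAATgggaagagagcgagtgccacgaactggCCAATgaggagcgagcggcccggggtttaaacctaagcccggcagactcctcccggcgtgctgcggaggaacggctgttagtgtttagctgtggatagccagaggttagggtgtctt
Ccnb2 promoter: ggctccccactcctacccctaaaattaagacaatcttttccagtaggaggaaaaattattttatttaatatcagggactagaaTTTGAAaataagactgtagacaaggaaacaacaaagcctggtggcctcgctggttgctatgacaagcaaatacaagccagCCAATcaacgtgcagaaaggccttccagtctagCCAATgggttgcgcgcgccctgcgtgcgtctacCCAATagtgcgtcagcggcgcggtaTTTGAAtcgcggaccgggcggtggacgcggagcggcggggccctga
Ccnb3 promoter: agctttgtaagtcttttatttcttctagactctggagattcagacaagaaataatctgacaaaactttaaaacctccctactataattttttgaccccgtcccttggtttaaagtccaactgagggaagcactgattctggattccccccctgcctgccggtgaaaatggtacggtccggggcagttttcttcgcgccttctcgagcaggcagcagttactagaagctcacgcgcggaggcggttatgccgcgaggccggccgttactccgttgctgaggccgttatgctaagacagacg
CCAAT was found in 6 of the 7 promoters, all but that of Ccnb3, and in 37.4% of 32851 RefSeq promoters of the same length. TTTGAA was found in those of Cdk1 and Ccnb2 alone among the 7, and in 17.9% of all promoters. The promoters of Cdk1 and Ccnb2 each held 3 copies of CCAAT and 2 of TTTGAA, that of Ccnb1 held 2 of CCAAT and none of TTTGAA, and that of Ccnb3 held neither. These matches describe the letters of the windows only.

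Library depth was similar over the 12 pools, with 17671193 to 27418358 counts each. Levels are given as CPM, the usual depth-normalised counts, scaled by TMM (the trimmed mean of M-values), and between genes as CPM per kb of the annotated transcript. The summed level of 13 oocyte markers was 19025 to 26275 CPM in every pool. The summed level of 13 granulosa and cumulus markers was uneven among the younger pools. It was 549.6 and 637 CPM in PND 13 replicates 1 and 3 and 693 CPM in PND 16 small replicate 2, and 131 to 265 CPM in the other 9 pools. These 9 pools differed in single markers. In PND 13 replicate 2, Nr5a2 alone made up 87.9 CPM of the sum. Gja1 and Inha stood at 1.4 and 2.3 CPM there and at 2.6 and 4.4 CPM in PND 16 small replicate 1. PND 16 small replicate 3 had 13.6 and 16.55 CPM. The competent pools had 13.6 to 35.0 CPM of Gja1 and 11.4 to 20.7 CPM of Inha. All 13 of these markers passed the filter, as did 3 of 6 theca markers and 1 of 7 blood and immune markers, of which 4 were at 0 in every pool. The summed theca level was 20.2 to 31.8 CPM at PND 13 and at most 19.3 CPM elsewhere, and the summed blood and immune level was at most 2.72 CPM. Of the theca markers, Ptch1 alone was 16.7 to 28.4 CPM at PND 13, while Cyp11a1 was highest at PND 40 (5.06 to 5.79 CPM). In pooled RNA, a change in the number of cells of a type and a change in the RNA of each cell cannot be told apart.

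The levels of the 10 genes spanned a wide range, with the oocyte kinase Wee2 at the top in every pool. Over the 12 pools, Wee2 stood at 246 ± 27.1 CPM per kb (mean ± SD), ranging from 197 to 293, and Ccnb1 followed at 86.3 ± 13.5. Ccnb2 (55.2 ± 4.46 CPM per kb), Cdc25a (52.8 ± 5.71) and Cdc25b (41.7 ± 5.63) came next, and each of these overlapped its neighbour over the pools. Pkmyt1 (21.0 ± 3.26 CPM per kb), Wee1 (20.1 ± 6.78), Ccnb3 (19.1 ± 5.18) and Cdk1 (16.8 ± 1.27) formed a group in which neighbours overlapped. Cdc25c was lowest at 6.64 ± 1.17 CPM per kb, below every pool of Cdk1. The order depends on the length used: per kb of all annotated exons, Ccnb2 (55.2) stood above Ccnb1 (51.0) and Pkmyt1 moved from rank 6 to rank 9. The exons of Pkmyt1, Cdc25b and Cdc25c share 319, 92 and 623 bases with Paqr4, Spef1 and Gm3550 on the opposite strand. The kit was directional, and the strand setting of the counting is not given in the sources used here.

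**Figure D1:**
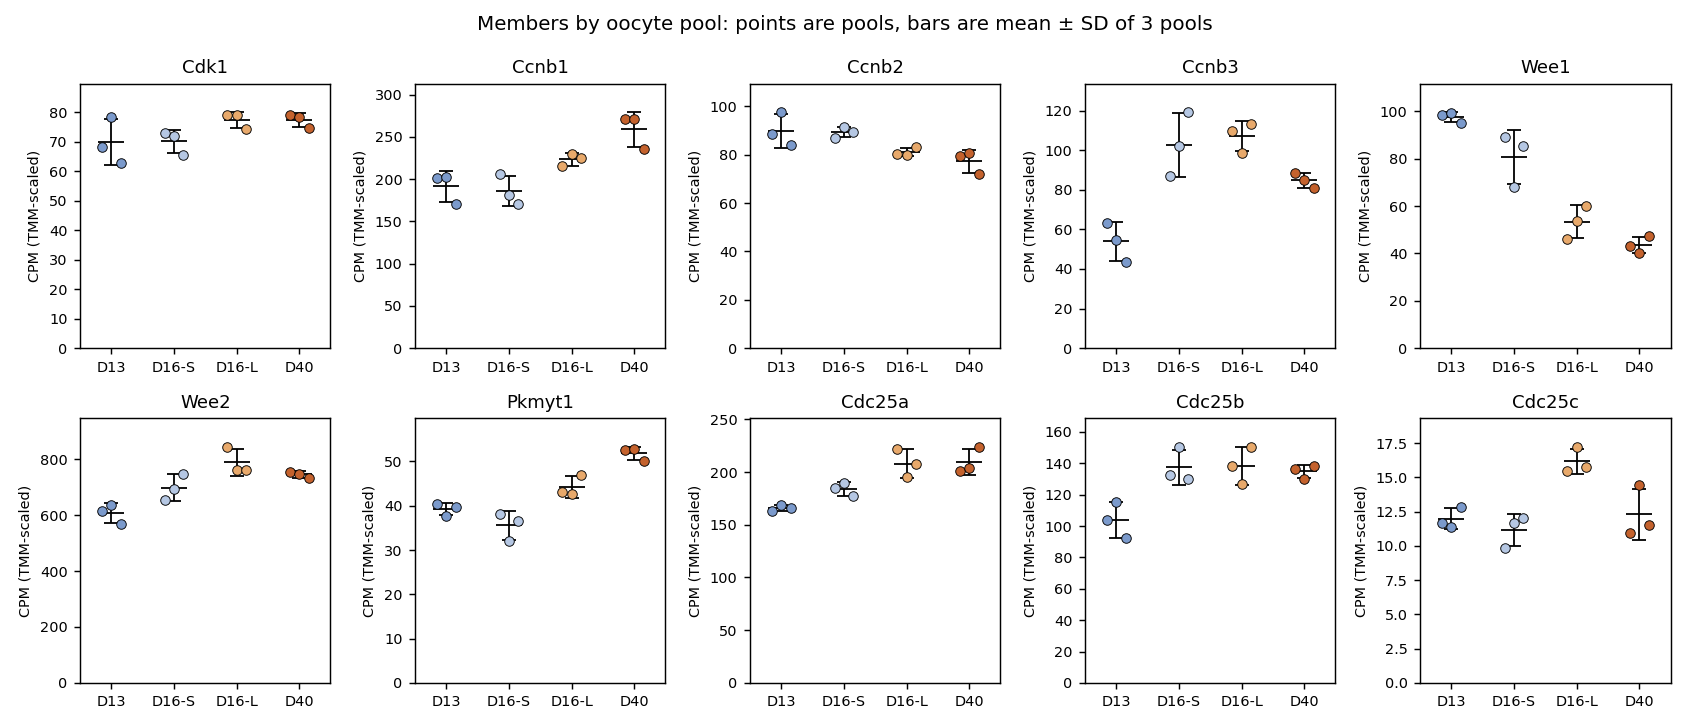
Level of each of the 10 genes in TMM-scaled CPM (y axis, starting at 0) in the 4 cohorts (D13, PND 13; D16-S, PND 16 small; D16-L, PND 16 large; D40, PND 40). Points are pools and bars the mean ± SD of 3 pools; Wee1 goes from a mean of 97.5 to 43.6 CPM, Ccnb3 is lowest at PND 13, and Cdk1 stays between 62.9 and 79.0 CPM.

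To ask which of the 10 genes changed with age, body weight and meiotic competence, the 4 cohorts were compared by edgeR's quasi-likelihood test. A gene is said to be differentially expressed at an adjusted p of at most 0.05 and a fold change of at least 1.5, the criteria of the study, and to pass the adjusted p where it is at most 0.05, whatever the fold change. Wee1 and Ccnb3 alone among the 10 genes reached both criteria in any comparison. Tested for any difference among the cohorts, 8 of the 10 passed the adjusted p, and so did 39.7% of all genes tested. The exceptions were Cdk1 (adjusted p = 0.296) and Ccnb2 (adjusted p = 0.084). Without the 3 pools of highest granulosa marker level, which left PND 13 with 1 pool whose spread is taken from the other cohorts, 4 of the 10 passed, namely Ccnb1, Ccnb3, Wee1 and Pkmyt1. On leaving out 1 pool, Cdc25b lost its call without PND 13 replicate 3 (adjusted p = 0.0539), and Cdc25c lost it without any of 7 pools (adjusted p up to 0.151, without PND 16 large replicate 2).

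In PND 40 vs. PND 13, 2 of the 10 genes were differentially expressed (Wee1 lower, Ccnb3 higher), against 18.9% of all genes. In the same comparison 8 passed the adjusted p, these 2 included, 6 higher and 2 lower at PND 40, against 33.1% of all genes. For PND 40 vs. PND 16 small, 1 was differentially expressed (Wee1, lower; background 17.2%) and 3 passed the adjusted p (background 30.2%). In PND 16 large vs. PND 13, 2 were differentially expressed (Wee1 lower, Ccnb3 higher; background 13.3%) and 6 passed the adjusted p (background 25.6%). Between the body weights, in PND 16 large vs. PND 16 small, 1 was differentially expressed (Wee1, lower; background 6.19%) and 3 passed the adjusted p (background 12.3%). In PND 16 small vs. PND 13, Ccnb3 was higher and passed both criteria, where 0.373% of all genes were differentially expressed and 0.925% passed the adjusted p. In competent vs. non-competent oocytes, 1 was differentially expressed (Wee1, lower; background 15%) and 6 passed the adjusted p, 4 higher and 2 lower (background 30.7%). Between the competent cohorts, in PND 40 vs. PND 16 large, none of the 10 passed either criterion by edgeR, where 3.66% of all genes were differentially expressed and 6.83% passed the adjusted p. In that comparison 5 of the 10 had an unadjusted p under 0.05, and DESeq2 and limma also called 0 at both criteria together. By the adjusted p alone the result depended on the method. Over the alternative tools, scalings, filters and models, its lowest value was 0.0056 for Ccnb3, 0.036 for Ccnb1 and 0.049 for Pkmyt1. It stayed above 0.05 for the other members. No test of the 10 genes as a group was run.

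**Figure D2:**
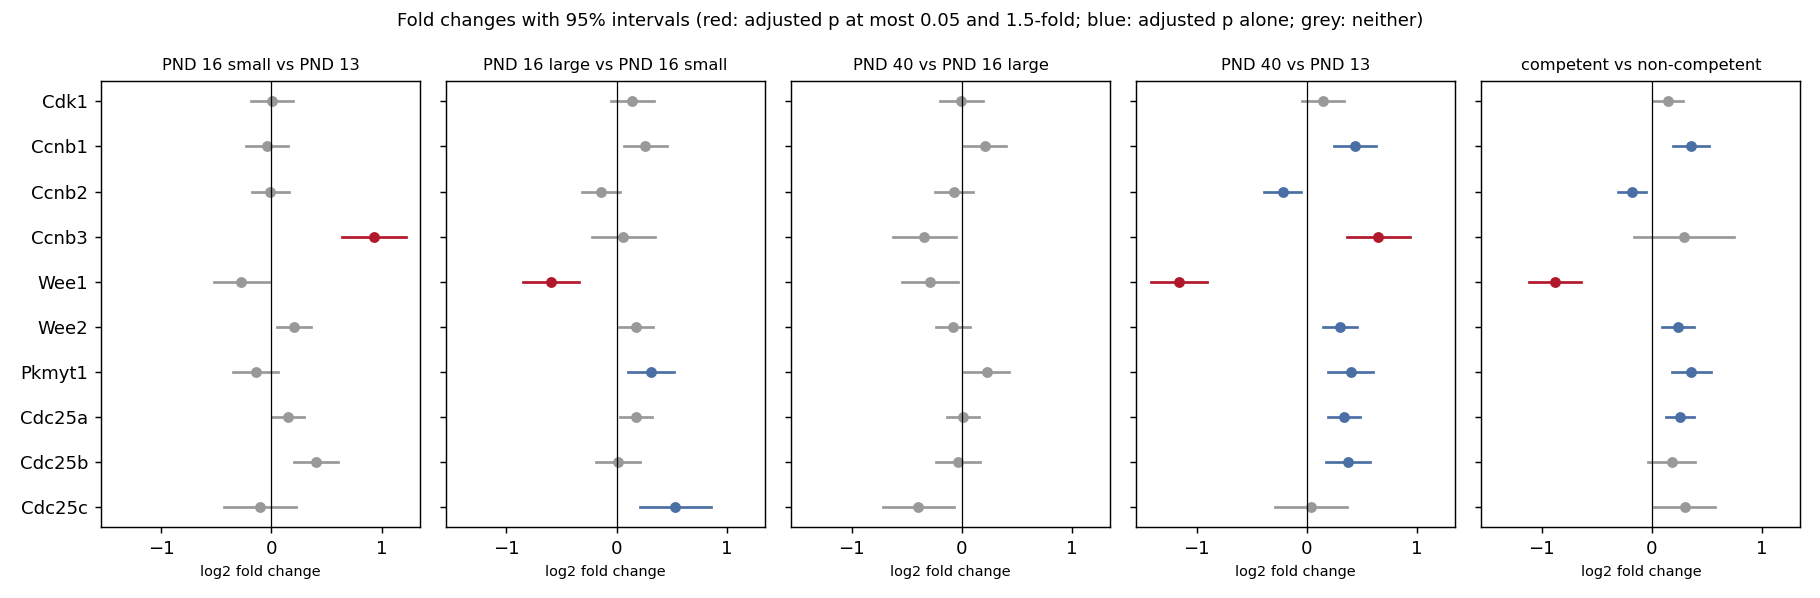
Log2 fold change (x axis, first-named cohort over second) of each gene with its 95% interval in 5 comparisons. Red marks genes past both criteria, blue those past the adjusted p alone and grey the rest; Wee1 and Ccnb3 are the only genes in red, and no gene is coloured in PND 40 vs. PND 16 large.

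Among the inhibitory kinases, Wee1, the widely expressed nuclear kinase, fell with age and with body weight at PND 16. Wee1 (chr7:110122046-110143286) stood at 98.4, 99.1 and 95 CPM in the PND 13 pools and at 89.1, 67.9 and 85.2 CPM in PND 16 small. In PND 16 large it stood at 46.1, 53.7 and 60.1 CPM, and at PND 40 at 43.1, 40.3 and 47.3 CPM. All 6 competent pools lay below all 6 non-competent pools, while PND 16 large and PND 40 overlapped. Wee1 fell 2.24-fold in PND 40 vs. PND 13 (log2 fold change -1.16 ± 0.12 SE, 95% interval -1.42 to -0.91, adjusted p = 3.9e-05). It was 1.83-fold lower in PND 16 large vs. PND 13 (-0.87, adjusted p = 0.00045) and 1.85-fold lower in PND 40 vs. PND 16 small (-0.89, adjusted p = 0.00019). The difference in PND 16 small vs. PND 13 was -0.27 (interval -0.52 to -0.02, adjusted p = 0.224), and that of PND 40 vs. PND 16 large was -0.29 (interval -0.54 to -0.04, adjusted p = 0.162).

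Within PND 16, Wee1 was lower in oocytes of large mice by -0.60 ± 0.12 on the log2 scale (adjusted p = 0.00704), close to the 1.5-fold limit. The fold change dropped under that limit without PND 16 small replicate 1 (-0.52), without PND 16 small replicate 3 (-0.56) and without PND 16 large replicate 1 (-0.50), with adjusted p of at most 0.0478, and without the filter on low counts (-0.58). In competent vs. non-competent oocytes Wee1 was 1.84-fold lower (-0.88 ± 0.11, adjusted p = 8.8e-05). The summed granulosa and cumulus level was also higher in some non-competent pools. In other non-competent pools, Inha and Gja1 were lower than in any competent pool. The summed theca level was 12.1 to 31.8 CPM in the non-competent and 7.45 to 10.9 CPM in the competent pools, without overlap. Of the theca markers, Ptch1 alone had this split (8.96 to 28.4 against 2.39 to 7.06 CPM), while Cyp11a1 was highest at PND 40. The part of the theca, granulosa and cumulus levels in the Wee1 difference was not tested. PND 13 replicate 2, with the lowest marker level of all pools (131 CPM), had the highest Wee1 level (99.1 CPM), and PND 16 small replicate 2, with the highest marker level, had the lowest Wee1 level of the non-competent pools. Without the 3 pools of highest marker level, the difference in competent vs. non-competent oocytes was -0.91 (adjusted p = 0.00071).

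Wee2, the oocyte kinase, moved the other way and by less. It stood at 614, 638 and 567 CPM at PND 13, at 653, 694 and 748 CPM in PND 16 small, at 845, 759.6 and 762 CPM in PND 16 large, and at 756, 749 and 732 CPM at PND 40. The PND 13 pools were the lowest of all, and PND 16 small overlapped PND 40. Wee2 (chr6:40439088-40466813) passed the adjusted p in PND 40 vs. PND 13 (0.30 ± 0.07 on the log2 scale, 1.23-fold, adjusted p = 0.00642), in PND 16 large vs. PND 13 (0.38, adjusted p = 0.00247) and in competent vs. non-competent oocytes (0.23, adjusted p = 0.0174). None of these calls held without the 3 pools of highest granulosa marker level, where the values were 0.23, 0.31 and 0.18 with adjusted p of 0.155, 0.0728 and 0.108. What part the marker level has in this was not tested.

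Pkmyt1, the membrane-bound kinase, was highest in the adult. It stood at 40.4, 37.7 and 39.8 CPM at PND 13 and at 38.2, 32.0 and 36.6 CPM in PND 16 small. It then stood at 43.1, 42.6 and 47.1 CPM in PND 16 large and at 52.6, 52.8 and 50.2 CPM at PND 40. The competent pools did not overlap the non-competent ones, nor did PND 40 overlap PND 16 large. The difference in PND 40 vs. PND 16 large did not pass by edgeR (0.23, adjusted p = 0.17). Pkmyt1 (chr17:23726336-23736735) passed the adjusted p in PND 40 vs. PND 13 (0.40 ± 0.10, 1.32-fold, adjusted p = 0.00616), PND 40 vs. PND 16 small (0.54, 1.46-fold, adjusted p = 0.0011) and competent vs. non-competent oocytes (0.36, adjusted p = 0.00537). In PND 40 vs. PND 16 small it reached the 1.5-fold limit without PND 16 small replicate 1 (0.60). In PND 16 large vs. PND 16 small (0.31, adjusted p = 0.048) the call was lost when any of 10 pools was left out in turn, with adjusted p up to 0.162 (without PND 16 large replicate 3), and with the replicate number as a block (adjusted p = 0.0637), and it was 0.25 (adjusted p = 0.124) without the 3 pools of highest granulosa marker level.

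Among the B cyclins, Ccnb3 was higher at PND 16 than at PND 13, in oocytes of small and of large mice. Cyclin B3 (Ccnb3, chrX:6979652-7041619) is a B-type cyclin of meiotic cells. It stood at 63.3, 54.8 and 43.6 CPM at PND 13 and at 86.8, 102 and 119 CPM in PND 16 small. In PND 16 large it stood at 109, 98.5 and 113 CPM, and at PND 40 at 88.2, 84.9 and 80.9 CPM. Every PND 13 pool lay below every pool of the other cohorts, and the PND 40 pools lay below those of PND 16 large. Ccnb3 was 1.99-fold higher in PND 16 large vs. PND 13 (0.99 ± 0.13, interval 0.70 to 1.28, adjusted p = 0.00045) and 1.9-fold higher in PND 16 small vs. PND 13 (0.93 ± 0.13, interval 0.64 to 1.22, adjusted p = 0.0189). It was 1.57-fold higher in PND 40 vs. PND 13 (0.65 ± 0.13, adjusted p = 0.00249).

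The 2 body weights at PND 16 did not differ beyond their spread in Ccnb3 (0.06, interval -0.22 to 0.35, adjusted p = 0.805), nor did competent and non-competent oocytes (0.29, interval -0.16 to 0.75, adjusted p = 0.315). From PND 16 large to PND 40 the value was -0.34 (interval -0.62 to -0.05, adjusted p = 0.147). The call in PND 16 small vs. PND 13 was lost without PND 13 replicate 3 (0.80, adjusted p = 0.08), without PND 16 small replicate 3 (0.80, adjusted p = 0.0679), with only the 6 pools compared (0.92, adjusted p = 0.33), and without the 3 pools of highest granulosa marker level (0.91, adjusted p = 0.0853). A block on the replicate number gave 0.93 (adjusted p = 0.0519). The fold change in PND 40 vs. PND 13 dropped under 1.5 without PND 13 replicate 3 (0.52, adjusted p = 0.0112) and with scaling to total counts (0.58). The PND 13 pool of low granulosa marker level (replicate 2) had 54.8 CPM of Ccnb3, between the other 2 PND 13 pools. What part the marker level has in the Ccnb3 differences was not tested. Without the 3 pools of highest marker level, Ccnb3 was 0.97 higher in PND 16 large vs. PND 13 (adjusted p = 0.00797).

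**Figure D3:**
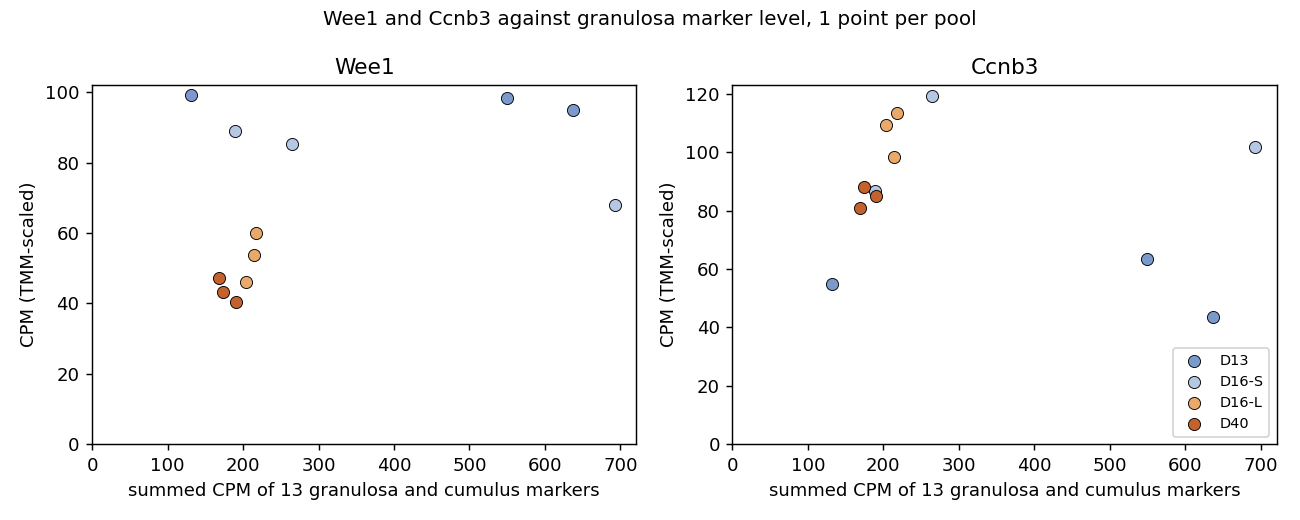
Wee1 (left) and Ccnb3 (right) in TMM-scaled CPM (y axis) against the summed CPM of 13 granulosa and cumulus markers (x axis), 1 point per pool, coloured by cohort. The PND 13 pool at 131 CPM of markers has a Wee1 level of 99.1 CPM, close to the PND 13 pools at 549.6 and 637 CPM of markers (98.4 and 95 CPM). The relation of either gene to the marker level was not tested.

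Cdk1, the catalytic subunit, had the smallest ratio between its highest and lowest cohort mean among the 10 genes. Cdk1 (chr10:69335146-69352938) stood at 68.3, 78.3 and 62.9 CPM at PND 13, at 72.9, 71.9 and 65.6 CPM in PND 16 small, at 79.0, 79.0 and 74.3 CPM in PND 16 large, and at 79.0, 78.4 and 74.6 CPM at PND 40. The highest PND 13 pool reached the level of the competent pools. No comparison of Cdk1 passed the adjusted p, and that ratio was 1.11. The interval in PND 40 vs. PND 13 was -0.05 to 0.34 on the log2 scale, and in competent vs. non-competent oocytes it was 0.01 to 0.28 (adjusted p = 0.104), both inside the 1.5-fold limit.

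Cyclin B1, the main partner of CDK1, rose while cyclin B2 fell slightly. Ccnb1 (chr13:100778650-100786570) stood at 201, 202 and 170.5 CPM at PND 13, at 206, 181 and 171 CPM in PND 16 small, at 216, 229.8 and 224 CPM in PND 16 large, and at 271, 271 and 235 CPM at PND 40. The competent pools lay above all non-competent pools, and PND 40 above PND 16 large. The value in PND 40 vs. PND 16 large was 0.21 and did not pass by edgeR (adjusted p = 0.171). Ccnb1 was 1.35-fold higher in PND 40 vs. PND 13 (0.44 ± 0.09, interval 0.24 to 0.63, adjusted p = 0.00242), 1.39-fold higher in PND 40 vs. PND 16 small (0.48, adjusted p = 0.00161) and 1.28-fold higher in competent vs. non-competent oocytes (0.35, adjusted p = 0.00307). On leaving out the 3 pools of highest granulosa marker level, the values were 0.36 (adjusted p = 0.0771), 0.46 (adjusted p = 0.00532) and 0.33 (adjusted p = 0.0365).

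Ccnb2 (chr9:70407692-70421547) stood at 88.4, 97.7 and 83.9 CPM at PND 13, at 87.1, 91.5 and 89.5 CPM in PND 16 small, at 80.3, 79.9 and 83.2 CPM in PND 16 large, and at 79.3, 80.7 and 71.9 CPM at PND 40. All competent pools lay below all non-competent pools, by a small margin. The log2 fold change was -0.22 ± 0.08 in PND 40 vs. PND 13 (adjusted p = 0.0473) and -0.18 ± 0.06 in competent vs. non-competent oocytes (adjusted p = 0.0339). The adjusted p in PND 40 vs. PND 13 rose above 0.05 without any of 5 pools (PND 13 replicate 1 or 2 and each PND 40 pool), up to 0.189 without PND 40 replicate 3, and with the replicate number as a block (0.0579). In competent vs. non-competent oocytes it rose up to 0.0859 (without PND 40 replicate 3), also on leaving out 1 of 5 pools. Both calls were lost without the 3 pools of highest granulosa marker level (adjusted p = 0.0525 and 0.0902).

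Of the activating phosphatases, Cdc25a and Cdc25b were higher at later ages and Cdc25c was highest in PND 16 large. Cdc25a (chr9:109875579-109893895), which acts in S phase and at M phase entry, stood at 163, 168 and 166 CPM at PND 13, at 185, 189.5 and 177 CPM in PND 16 small, at 222, 195 and 208 CPM in PND 16 large, and at 201, 204 and 224 CPM at PND 40. The PND 13, PND 16 small and competent pools formed 3 ranges without overlap. Cdc25a passed the adjusted p in PND 40 vs. PND 13 (0.34 ± 0.07, 1.26-fold, adjusted p = 0.00234), PND 16 large vs. PND 13 (0.33, adjusted p = 0.00443) and competent vs. non-competent oocytes (0.26, adjusted p = 0.0045). Without the 3 pools of highest granulosa marker level, PND 40 vs. PND 13 gave 0.32 (adjusted p = 0.0666) and PND 16 large vs. PND 13 gave 0.31 (adjusted p = 0.086).

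Cdc25b (chr2:131186949-131198497), the phosphatase needed for meiotic resumption in mouse oocytes, had its lowest level at PND 13. It stood at 104, 115 and 92.5 CPM at PND 13, and at 132, 150.3 and 130.02 CPM in PND 16 small. It then stood at 138, 127 and 151 CPM in PND 16 large and at 137, 130.3 and 138 CPM at PND 40. The PND 13 pools were the lowest, and the other 3 cohorts overlapped. Cdc25b was 1.3-fold higher in PND 40 vs. PND 13 (0.38 ± 0.09, adjusted p = 0.00729) and 1.33-fold higher in PND 16 large vs. PND 13 (0.42, adjusted p = 0.00628). In PND 16 small vs. PND 13 the value was 0.41 and did not pass (interval 0.20 to 0.61, adjusted p = 0.0551). Over the alternative tools, scalings, filters and models, its lowest adjusted p was 0.0029, so by the adjusted p alone the result depended on the method. Without the 3 pools of highest granulosa marker level, the log2 fold change in PND 16 small vs. PND 13 was 0.18. In competent vs. non-competent oocytes of all pools the value was also 0.18 (interval -0.03 to 0.39, adjusted p = 0.186). With the 3 pools of highest granulosa marker level left out, PND 40 vs. PND 13 gave 0.23 (adjusted p = 0.19) and PND 16 large vs. PND 13 gave 0.27 (adjusted p = 0.146).

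Cdc25c, a phosphatase that acts at M phase entry in dividing cells, lies on chromosome 18 and was the least abundant, with 202 to 437 reads per pool. It stood at 11.7, 11.4 and 12.9 CPM at PND 13, at 9.82, 11.7 and 12.04 CPM in PND 16 small, at 15.5, 17.2 and 15.8 CPM in PND 16 large, and at 10.9, 14.5 and 11.5 CPM at PND 40. The 3 PND 16 large pools were the highest of the 12. Cdc25c was 1.45-fold higher in PND 16 large vs. PND 16 small (0.53 ± 0.15, adjusted p = 0.0356) and 1.35-fold higher in PND 16 large vs. PND 13 (0.43 ± 0.15, adjusted p = 0.0492). Leaving out 1 pool took the adjusted p up to 0.113 and 0.155, both without PND 16 large replicate 2. The first was lost without any of 4 pools (PND 16 small replicate 1 and each PND 16 large pool), and reached both criteria without PND 16 small replicate 3 (0.59). The second was lost without any of 9 pools, with scaling to total counts (adjusted p = 0.128) and under the replicate number as a block (adjusted p = 0.0592). Both were lost without the 3 pools of highest granulosa marker level (adjusted p = 0.0575 and 0.189). PND 40 vs. PND 13 gave 0.04 (interval -0.28 to 0.36).

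The balance between members was also read inside each pool, as ratios of counts per kb that no scaling between pools can move. The ratio of Wee2 to Wee1 was 7.37 ± 0.28 at PND 13 and 10.4 ± 1.72 in PND 16 small (mean ± SD, n = 3). It was 17.8 ± 3.46 in PND 16 large and 20.4 ± 1.86 at PND 40. The lowest PND 16 large pool (15.05) lay above the highest PND 16 small pool (12.1). Pkmyt1 was below Wee1 per kb in every non-competent pool, with ratios of 0.638 to 0.789, and above it in every competent pool, with ratios of 1.31 to 2.19. This crossing turns on the length used: per kb of all annotated exons the ratio was 0.735 to 0.877 in PND 16 large and above 1 in 2 of the 3 PND 40 pools. The ratio of Cdc25b to Wee1 was 1.18 ± 0.10 at PND 13 and 3.44 ± 0.18 at PND 40, whereas that of Cdc25b to Wee2 was 0.160 ± 0.0083 and 0.169 ± 0.0069. The ratio of Ccnb1 to Ccnb2 was 1.31 ± 0.08 at PND 13, 1.28 ± 0.15 in PND 16 small, 1.69 ± 0.07 in PND 16 large and 2.06 ± 0.04 at PND 40. Here PND 40 and PND 16 large did not overlap each other or the younger cohorts. Which of Ccnb1 and Ccnb2 was higher also turns on the length used. Per kb of all annotated exons, their ratio was 0.772 at PND 13, 0.757 in PND 16 small, 0.999 in PND 16 large and 1.22 at PND 40. The ratio of Ccnb3 to Ccnb1 was 0.153 ± 0.017 at PND 13, 0.306 ± 0.075 in PND 16 small, 0.263 ± 0.025 in PND 16 large and 0.179 ± 0.0083 at PND 40. These ratios were not tested.

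**Figure D4:**
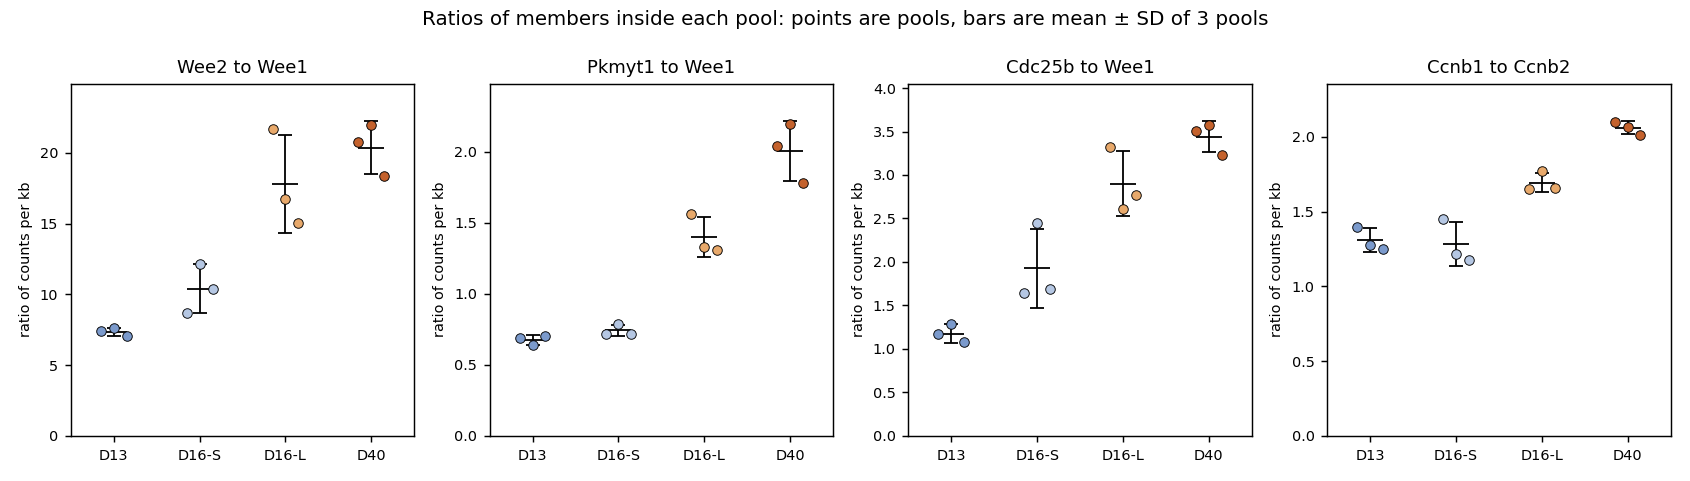
Ratios of counts per kb of the annotated transcript between pairs of members inside each pool (y axis, starting at 0), by cohort. Points are pools and bars the mean ± SD of 3 pools; the ratio of Wee2 to Wee1 goes from 7.37 at PND 13 to 20.4 at PND 40 and that of Ccnb1 to Ccnb2 from 1.31 to 2.06.

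Around these 10 genes, 44 further genes of the network were counted, all of which were tested. They were other cyclins and CDKs, CDK activators, CDK inhibitors, the Greatwall and PP2A-B55 branch that opposes CDK1, checkpoint kinases with PLK1 and 14-3-3 proteins, and the control of cyclin B destruction. In PND 40 vs. PND 13, 7 of the 44 were differentially expressed, 2 higher and 5 lower, and 17 passed the adjusted p, 11 higher and 6 lower, against the same backgrounds of 18.9% and 33.1%. Their median log2 fold change was 0.13, where that of all genes was 0.0044 and that of the 10 members 0.32. In competent vs. non-competent oocytes, 3 were differentially expressed and 18 passed the adjusted p, 13 higher and 5 lower, against 15% and 30.7%.

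In the Greatwall and PP2A-B55 branch, 4 of 11 genes were differentially expressed in PND 40 vs. PND 13, 2 in each direction, against 18.9% of all genes. Ppp2cb, a catalytic subunit of PP2A, fell 5.25-fold, from 20.5 ± 4.27 to 3.89 ± 0.52 CPM (-2.39, adjusted p = 2.6e-05), and fell 3.57-fold in competent vs. non-competent oocytes (-1.84, adjusted p = 3.8e-05). Its close paralogue Ppp2ca did not pass in PND 40 vs. PND 13, and whether the counting placed reads of one gene in the other was not tested. Among the B55 regulatory subunits, Ppp2r2a rose from 41.2 ± 3.37 to 62.6 ± 3.56 CPM (0.60, adjusted p = 0.00101), Ppp2r2c rose from 0.504 ± 0.11 to 1.67 ± 0.60 CPM (1.72, adjusted p = 0.0196) and Ppp2r2b fell from 34.8 ± 5.52 to 22.7 ± 3.41 CPM (-0.62, adjusted p = 0.00445). Ppp2r2c was also higher in competent vs. non-competent oocytes (1.54, adjusted p = 0.00384). Mastl, the Greatwall kinase itself, stood at 270.5 ± 17.2 and 301 ± 2.72 CPM and did not pass (adjusted p = 0.201). Ppp2ca, Arpp19, Ensa and Mastl are named here after their values were seen.

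Of the other cyclins and CDKs, Cdk2 (-0.65, adjusted p = 0.00466) and Ccne2 (-0.60, adjusted p = 0.0342), the kinase and cyclin E partner of the G1 to S transition, fell in PND 40 vs. PND 13, as did the checkpoint kinase Chek2 (-0.91, adjusted p = 0.00958). In competent vs. non-competent oocytes Spdya, a CDK activator, was lower (-1.70, adjusted p = 0.0455) at 0.299 ± 0.22 against 0.993 ± 0.37 CPM. In PND 40 vs. PND 13, 2 of the 3 genes of cyclin B destruction passed the adjusted p, against 33.1% of all genes. They were Cdc20, an activator of that destruction (0.38, adjusted p = 0.00369), and Fbxo5 (EMI1), an inhibitor of the anaphase-promoting complex (0.34, adjusted p = 0.00865). The remaining gene, Fzr1, did not pass (-0.16, adjusted p = 0.304). Of the 10 checkpoint, PLK1 and 14-3-3 genes, 4 were higher and 1 lower at PND 40 by the adjusted p, against the same 33.1%. The 4 were Ywhae (0.46, adjusted p = 0.000405), Plk1 (0.46, adjusted p = 0.00935), Chek1 (0.27, adjusted p = 0.00943) and Ywhaz (0.24, adjusted p = 0.0123). Cdc20, Fbxo5, Fzr1, Plk1, Chek1, Ywhae and Ywhaz are named here after their values were seen.

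Some of the network calls rested on few pools. Ccne2 lost its call without any of the 6 pools compared (adjusted p up to 0.121, without PND 40 replicate 1) and with the replicate number as a block (adjusted p = 0.0558). Ppp2r2a fell under the 1.5-fold limit without any of 8 pools (down to 0.55, without PND 13 replicate 3) and with scaling to total counts (0.53), with adjusted p of at most 0.00709. Chek2 lost its call without PND 40 replicate 1 (-0.75, adjusted p = 0.0508), and Ppp2r2b fell under the limit without PND 13 replicate 2 (-0.55) or PND 40 replicate 3 (-0.53). Ppp2r2c lost its call without PND 13 replicate 1 or 3 or PND 40 replicate 3 (adjusted p up to 0.0901). Without PND 40 replicate 3, 3 of the 7 genes in PND 40 vs. PND 13 kept their call (Cdk2, Ppp2cb and Chek2), and without PND 13 replicate 3, 4 did (Cdk2, Ppp2cb, Ppp2r2b and Chek2). Without the 3 pools of highest granulosa marker level, 6 genes were called there, among them 4 of the 7, and Cdk2, Ppp2r2c and Chek2 were lost. In competent vs. non-competent oocytes, leaving out PND 16 small replicate 3 gave 6 called genes, of which Ppp2cb and Ppp2r2c were among the original 3, and Spdya was lost without any of 9 pools.

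**Figure D5:**
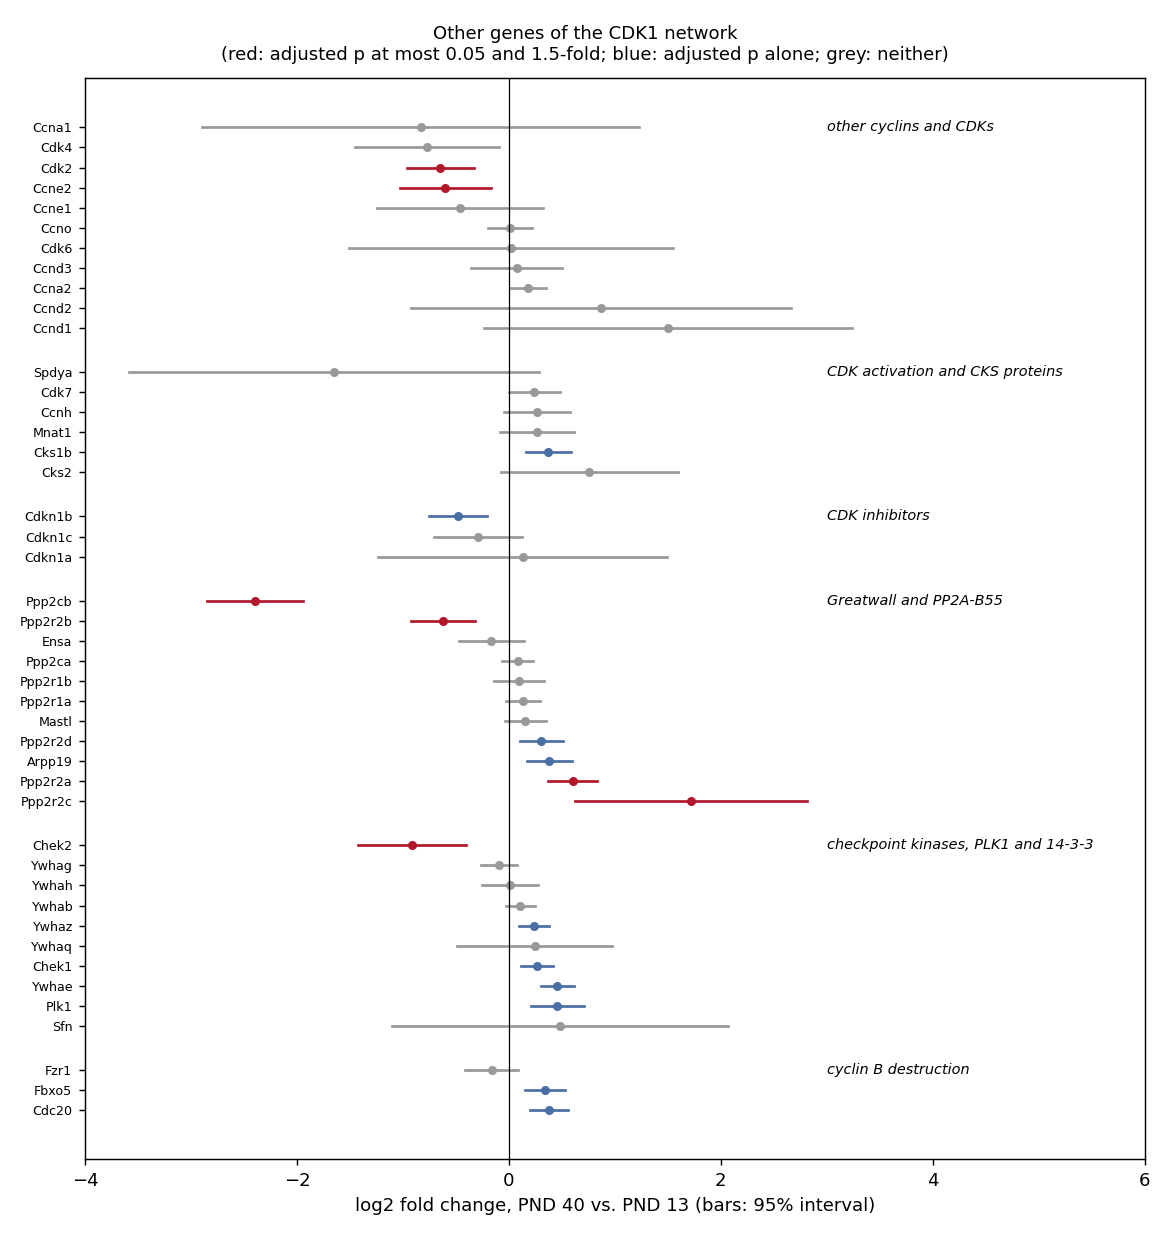
Log2 fold change in PND 40 vs. PND 13 (x axis) of 44 genes of the CDK1 network with 95% intervals, grouped by role. Red marks the 7 genes past both criteria (2 higher, 5 lower), blue those past the adjusted p alone and grey the rest.

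The genes whose log2 CPM over the 12 pools was most like that of the differentially expressed members were found among 11947 others with a mean of at least 1 CPM. For Wee1 they were Slc27a4, a fatty acid transport protein (Pearson's r = 0.988), and Map7d1 (r = 0.986), which fell from 15.8 to 4.11 CPM and from 51.4 to 23.2 CPM on average between PND 13 and PND 40. For Ccnb3 they were Nlrp9a, an NLR family gene (r = 0.974), and Bmp5, a bone morphogenetic protein (r = 0.971), with cohort means of 104 CPM at PND 13, 186 in PND 16 small, 203 in PND 16 large and 148 at PND 40 for Bmp5. The pools share cohort, library preparation and scaling, and these values describe likeness only.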

How the data were processed

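RNA-Seq was performed by the authors on 12 pools of oocytes (rRNA-depleted, directional libraries, HiSeq), 3 in each of 4 cohorts, and cohorts and replicate numbers were taken from the sample labels. The deposited count table holds unnormalized read counts of 24562 genes. A second deposited table is on a log2 scale: its values equal log2(count / size factor + 1) with 1 factor per pool, which differed from DESeq2's size factor by at most 0.0162%. The submitters' processing notes name FastQC, STAR, HTSeq, DESeq2, DESeq and HOMER and the build mm10, with no versions or settings, and the strand setting of the counting is not given in the sources used here. The totals per pool were 17671193 to 27418358 counts, and the members had 202 (Cdc25c) to 20645 (Wee2) counts in a pool. No pools were duplicates: between pools of a cohort the chi-square was 9.24 to 50.2 per gene.

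The counts were analysed in R 4.3.3 with edgeR 4.0.16 (filterByExpr with a minimum count of 10, TMM, robust quasi-likelihood fit of all 12 pools, Benjamini-Hochberg adjustment over 13943 genes). A separate model with 2 groups served for competent vs. non-competent oocytes. Standard errors were derived from the fold change and its F statistic, and 95% intervals use the t distribution of the fit. DESeq2 1.42.0, limma 3.58.1 on the deposited log2 values, other scalings and filters, models of fewer pools, a replicate block, leaving out each pool, and no fold-change criterion were the alternatives. Leaving out the 3 pools of highest granulosa marker level was added after seeing the data. The fits were also run on counts simulated with known fold changes, and that outcome is not given here. These simulated counts did not carry the uneven granulosa marker levels of the real pools. Gene models are those of GENCODE M21 (GRCm38), and lengths are of 1 transcript with a RefSeq accession per gene.

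The 10 members, the 44 network genes and the marker lists were chosen with earlier results of these data known. All members were named, but not every fold change that did not pass is printed. Also named were network genes called in PND 40 vs. PND 13 or competent vs. non-competent oocytes (at most 8 in each direction), and the 2 genes most like each member called in any comparison. Network genes named after their values were seen are marked as such.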

Additional observations from a re-analysis of the deposited data

Results flagged for a closer look

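Among 20 groups examined (each of the 10 genes in the 6 competent and in the 6 non-competent pools), 2 held a pool whose gap to its nearest neighbour, as a share of the group's range, was above Dixon's 95% critical value for 6 values. For Ccnb2 in the competent pools, PND 40 replicate 3 lay low at 71.9 CPM, where the next pool had 79.3 CPM (gap 0.654 of the range). For Wee2 in the competent pools, PND 16 large replicate 1 lay high at 845 CPM, where the next pool had 762 CPM (gap 0.727 of the range). Chance flags about 5% of such groups. The competent group also joins 2 cohorts, whose levels need not be equal. Without these pools, Ccnb2 in competent vs. non-competent oocytes was -0.15 (adjusted p = 0.0859) and Wee2 was 0.20.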

How the results depend on the processing

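Of 70 log2 fold changes of the 10 genes under the alternatives (1600 values), 1546 kept their direction and side of the criteria, and none of the 8 called fold changes reversed. Wee1 stayed called in PND 40 vs. PND 13 (log2 fold changes -1.23 to -1.11), PND 40 vs. PND 16 small, PND 16 large vs. PND 13 and competent vs. non-competent oocytes under every alternative. Called members numbered 1 in PND 40 vs. PND 13 with total counts, 0 in PND 16 large vs. PND 16 small without a filter, and 0 in PND 16 small vs. PND 13 with only the 6 pools compared and without the 3 pools of highest granulosa marker level, which also left 4 members differing among the cohorts. Without the fold-change criterion they numbered 8 (PND 40 vs. PND 13), 3 (PND 40 vs. PND 16 small), 6 (PND 16 large vs. PND 13), 3 (PND 16 large vs. PND 16 small) and 6 (competent vs. non-competent oocytes), and network genes 17 (PND 40 vs. PND 13) and 18 (competent vs. non-competent oocytes). With both criteria kept, the stricter filter gave 1 network gene in competent vs. non-competent oocytes, where 3 were called with the filter used. Leaving out 1 pool gave 1 to 2 members in PND 40 vs. PND 13 and vs. PND 16 small, 0 to 1 in PND 16 large vs. PND 16 small and in PND 16 small vs. PND 13, and 3 to 7 and 2 to 6 network genes. The cause of these changes was not tested.

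Deviations of same-numbered pools of different cohorts correlated at -0.442 to 0.0753. Pools of different numbers were not compared, so these values cannot decide whether the numbers in the labels pair the pools. With the replicate block 0 members were called in PND 16 small vs. PND 13 (Ccnb3, 0.93, adjusted p = 0.0519), Ccne2 lost its call in PND 40 vs. PND 13, and the other counts stayed within 1.5 times.

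All 41 reversals were of 12 uncalled values, the largest of which were those of Cdk1 in PND 40 vs. PND 13 (0.15) and PND 16 large vs. PND 13 (0.15). With total counts they were Cdc25c in PND 40 vs. PND 13 (-0.033) and Cdk1 in PND 40 vs. PND 16 large (0.022) and PND 16 small vs. PND 13 (-0.090). With upper quartile factors, Cdk1 gave 0.0082 and -0.012 in the same 2 comparisons. Cdk1 in PND 16 small vs. PND 13 was -0.015 with no filter and -0.010 with only the 6 pools. Cdc25b in PND 16 large vs. PND 16 small was -0.00085 with the stricter filter. Cdc25a in PND 40 vs. PND 16 large was -0.0027 with RLE factors, -0.0026 with DESeq2, -0.00083 with no filter, and -0.0020 with limma at either pseudocount. Without the 3 pools of highest marker level, Cdk1 was -0.016 (PND 40 vs. PND 13), -0.013 (PND 16 large vs. PND 13) and -0.18 (PND 16 small vs. PND 13), and Cdc25b 0.046 (PND 40 vs. PND 16 small). On leaving out 1 pool, Cdc25c in PND 40 vs. PND 13 ranged from -0.090 to 0.12 and Ccnb3 in PND 16 large vs. PND 16 small from -0.042 to 0.18. Cdc25b ranged from -0.073 to 0.037 (PND 40 vs. PND 16 small), -0.053 to 0.081 (PND 16 large vs. PND 16 small) and -0.11 to 0.023 (PND 40 vs. PND 16 large). In PND 40 vs. PND 16 large, Cdk1 ranged from -0.035 to 0.023 and Cdc25a from -0.046 to 0.052. In PND 16 small vs. PND 13, Cdk1 ranged from -0.066 to 0.076, Ccnb1 from -0.12 to 0.0055 and Ccnb2 from -0.060 to 0.033.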
